A study of Mus musculus with 6 samples.

Results

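Transcripts of 10 amino acid transporter genes were followed in embryonic fibroblasts from C57BL/6 mice, cultured to passages 5 to 7: Slc7a1, Slc7a3, Slc7a5, Slc7a6, Slc7a11, Slc3a2, Slc1a4, Slc1a5, Slc38a1 and Slc38a2. The genes were taken by symbol as members of the families that carry amino acids across the plasma membrane. They were chosen with earlier results of these data known, and other genes of these families are described apart. All 10 of 10 were found among the 48897 genes of the table, and all 10 were among the 18563 genes with enough reads to be tested. Control cultures had only PBS. The group named TC had TNF-α plus cycloheximide, and the group named TCZ had z-VAD-fmk as well; each group has 2 libraries. TNF-α is an inflammatory cytokine, cycloheximide stops translation, and z-VAD-fmk inhibits caspases; the series is titled as a study of apoptosis and necroptosis. Every treated library received TNF-α and cycloheximide together, so their shares cannot be told apart. Doses, treatment times and how the fibroblasts were derived were not given in the sources used here.

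Amino acid transporters set how fast a cell takes up the building blocks of protein and of glutathione. SLC7A5 (LAT1) exchanges large neutral amino acids such as leucine, SLC7A6 exchanges cationic for neutral amino acids, and SLC7A11 (xCT) imports cystine for glutathione. Each of these light chains reaches the cell surface only when bound to the heavy chain SLC3A2 (CD98hc). SLC7A1 and SLC7A3 carry arginine and lysine without a heavy chain. SLC1A4 and SLC1A5 exchange serine and alanine, and SLC1A5 exchanges glutamine as well. SLC38A1 and SLC38A2 load small neutral amino acids with sodium. Many of these genes are targets of ATF4, the transcription factor of the amino acid starvation response, and their uptake feeds the kinase complex mTORC1.

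Because the largest change among the 10 genes was in Slc7a11, its promoter is shown with those of Slc1a4, which also fell in TC and was higher again in TCZ, and of Slc3a2, which rose. The sequences are the 250 bases before the RefSeq start site on GRCm38.p6, printed 5′ to 3′ on the gene's strand, which is the minus strand for all 3. Capitals mark matches to TGATGNAA, the core of the element bound by C/EBP-ATF dimers such as those of ATF4, read on either strand.
Slc7a11: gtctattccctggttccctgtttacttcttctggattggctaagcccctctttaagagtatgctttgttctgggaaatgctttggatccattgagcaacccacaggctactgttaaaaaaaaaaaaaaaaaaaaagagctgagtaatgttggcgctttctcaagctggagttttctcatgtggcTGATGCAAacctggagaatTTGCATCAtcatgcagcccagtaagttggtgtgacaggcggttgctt
Slc1a4: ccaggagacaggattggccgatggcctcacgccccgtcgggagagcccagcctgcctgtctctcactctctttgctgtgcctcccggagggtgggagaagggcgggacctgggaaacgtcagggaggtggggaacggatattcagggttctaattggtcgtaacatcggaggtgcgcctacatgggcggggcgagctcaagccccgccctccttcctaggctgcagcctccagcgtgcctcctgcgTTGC
Slc3a2: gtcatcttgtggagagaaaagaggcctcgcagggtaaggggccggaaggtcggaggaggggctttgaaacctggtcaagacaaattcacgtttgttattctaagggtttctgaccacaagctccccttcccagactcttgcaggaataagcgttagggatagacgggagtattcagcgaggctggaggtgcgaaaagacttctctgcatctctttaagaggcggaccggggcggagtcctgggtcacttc
The Slc7a11 window is chr3:50443614-50443863, that of Slc1a4 is chr11:20332714-20332963 and that of Slc3a2 is chr19:8713898-8714147. The start sites of Slc7a11 and Slc3a2 lie inside the gene spans of the deposited table, and other start sites of these 3 genes were not searched. In Slc7a11 the motif occurred at positions -66 to -59 on the gene's strand and at -47 to -40 on the opposite strand, where position 1 is the start site. In Slc1a4 a match on the opposite strand spanned positions -4 to 4, and only its upstream letters are printed. Slc3a2 held no match, which says only that these letters are not in this window.

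RefSeq promoters were at hand for 6 of the 10 genes, namely these 3 with Slc7a1, Slc7a6 and Slc38a2. Windows of 300 bases were searched, with 50 bases after the start included. Slc7a1 and Slc7a6 had more than 1 window. A gene was counted if any of its windows matched, while the percentages given here are shares of single windows. Of the 6 genes, 2 (Slc7a11 and Slc1a4) held TGATGNAA, against 3.97% of 32851 promoters. Slc7a1 and Slc38a2, which fell in TC too, held none, as did Slc7a6 and Slc3a2. The 3 printed promoters were picked by fold change, so whether the motif goes with a course was not tested. More than 1 match was present in 0.07% of promoters (23), Slc7a11 among them. The antioxidant response element core TGACNNNGC was matched in Slc7a1, Slc7a6 and Slc38a2, against 12.4% of promoters. Neither the E-box CACGTG (7.15% of promoters) nor the cAMP response element TGACGTCA (1.79%) was matched in any of the 6. The cAMP element and the antioxidant core both open with TGAC, but their later letters differ, so a stretch aligned on those letters cannot match both. These matches are descriptions of letters and do not show that a factor was bound.

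Total counts were 24922627 to 52909926 per library. Control 2 (26834352) and TCZ 2 (24922627) were the shallow libraries, while the other 4 held 46509236 or more, so results are also given without this pair. The lowest raw count of any of the 10 genes in any library was 141, for Slc7a11 in TC 1. All 10 fibroblast markers examined had reads in every library, with summed levels of 32344 to 39080 CPM (counts scaled to the size of the library), highest in control. The 8 leukocyte markers summed to at most 14.3 CPM in control and TC and to 21.4 and 24.6 in TCZ; Cd3e had no count in control or TC. The 8 epithelial markers, mostly Krt19, summed to 18.8 and 20.3 CPM in the control libraries, to 74.1 and 81.1 in those of TC, and to 13.1 and 16.4 in those of TCZ; Krt5 was at 0 in control and TCZ 1, and Krt14 in TCZ 2. The 7 endothelial markers, mostly Kdr, summed to 13.1 and 14.9 CPM in the control libraries, to 138 and 145 in those of TC, and to 52.9 and 54.9 in those of TCZ; Cldn5 was at 0 in control 1 and TC 1. These sums moved with the treatments, and their part in the results below was not tested.

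Levels per transcript length were compared with the authors' RPKM, reads per kilobase of transcript scaled to the total of the library. In control, Slc38a2 had the highest mean level (95.5 RPKM), followed by Slc7a5 (78.3), Slc3a2 (31.3), Slc7a1 (28.3), Slc1a5 (24.9) and Slc38a1 (22.5). Slc1a4 (15.9 RPKM), Slc7a6 (14.3), Slc7a3 (7.52) and Slc7a11 (2.35) completed the order, and no neighbours in it overlapped between their 2 libraries. In TC the order was led by Slc3a2 (41.0 RPKM) and Slc38a2 (40.8), whose libraries overlapped, ahead of Slc7a5 (38.0). Slc7a6 (12.5 RPKM) and Slc1a5 (11.6) also overlapped there. In TCZ, Slc7a5 led at 77.2 RPKM, ahead of Slc3a2 (45.1) and Slc38a2 (39.6), while Slc38a1 had moved from the sixth place in control to the ninth (5.91). Slc7a6 (8.27 RPKM) and Slc7a3 (7.89) overlapped in that group. Summed over the 10 genes, control libraries had 322 and 320 RPKM, TC libraries 183 and 184, and TCZ libraries 241 and 238. RPKM uses library totals, while the tests below use TMM scaling. Library totals shifted the log2 median over all genes by -0.14 (TC to control) and -0.2 (TCZ to control). Treated groups thus lie lower against control in RPKM than on the TMM scale.

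**Figure D1:**
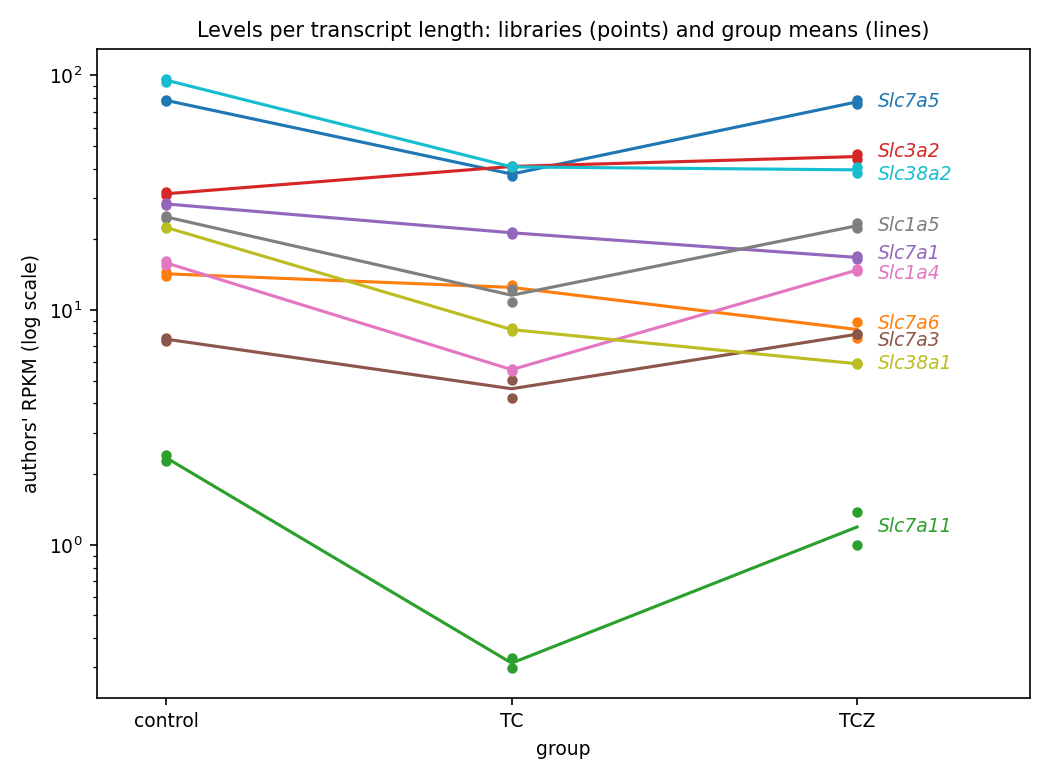
Authors' RPKM of the 10 transporter genes (vertical log axis) in control, TC and TCZ; points are libraries and lines join group means. Slc38a2 led in control at 95.5 RPKM and Slc7a5 in TCZ at 77.2, and Slc7a11 was lowest in every group.

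The first comparison, of TC with control, asks which transporters differed after TNF-α plus cycloheximide. Of the 10 genes, 8 fell and 1, Slc3a2, rose, while Slc7a6 did not pass (edgeR's quasi-likelihood test, Benjamini-Hochberg adjusted p under 0.05 over all genes tested). Over all genes tested 60.7% passed, 29.1% lower and 31.5% higher. Falls made up 8 of the 10 members, which were chosen with earlier results of these data known. Of 37 other amino acid transporter genes tested, 16 were lower and 12 higher, so the falls do not stand for such genes in general. The median log2 fold change of the 10 was -0.93, against 0.02 over all genes tested. The libraries of both groups did not overlap for the 8 genes that fell and the 1 that rose, which was so for 38.8% of genes on the lower side and 40.7% on the higher side. At least 2-fold falls numbered 4 (Slc7a11, Slc1a4, Slc38a1 and Slc38a2), against 11.7% of genes, and no member rose that far, against 17.6%. In bulk RNA, a lower level may come from fewer cells carrying a transcript or from less of it per cell, and these cannot be told apart.

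The second, of TCZ with TC, asks what differed when the caspase inhibitor was present too. Here 6 of the 10 genes were higher and 3 lower. Over all genes 56.1% passed, 28.2% higher and 27.9% lower. The median was 0.51, against 0.02 over all genes tested. Library values did not overlap for 7 genes on the higher side (40.1% of all genes) and 3 on the lower (38.4%). Rises of at least 2-fold numbered 4 (Slc7a5, Slc7a11, Slc1a4 and Slc1a5), against 11.6% of genes. Slc7a3, Slc7a5, Slc7a11, Slc1a4 and Slc1a5, 5 of the 10, were lower in TC than in control and higher in TCZ than in TC, a course taken by 13.7% of all genes (2546). Both of these comparisons use the TC libraries, so the calls are not independent of each other.

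The third, of TCZ with control, asks where the transporters stood with all 3 agents. Of the 10 genes, 5 were lower and 3 higher. Over all genes 60.1% passed, 28.6% lower and 31.5% higher. The 3 higher genes became 1 without control 2, without TCZ 1, with no low-count filter or with library totals alone. Library values did not overlap for 5 genes on the lower side (37.2% of all genes) and 4 on the higher (40.6%). The median was -0.24, against 0.05 over all genes tested, and 2 genes (Slc38a1 and Slc38a2) had fallen at least 2-fold, against 13.8%. This comparison and TC against control share the control libraries. The plot of fold changes shows the 3 comparisons side by side for each gene.

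**Figure D2:**
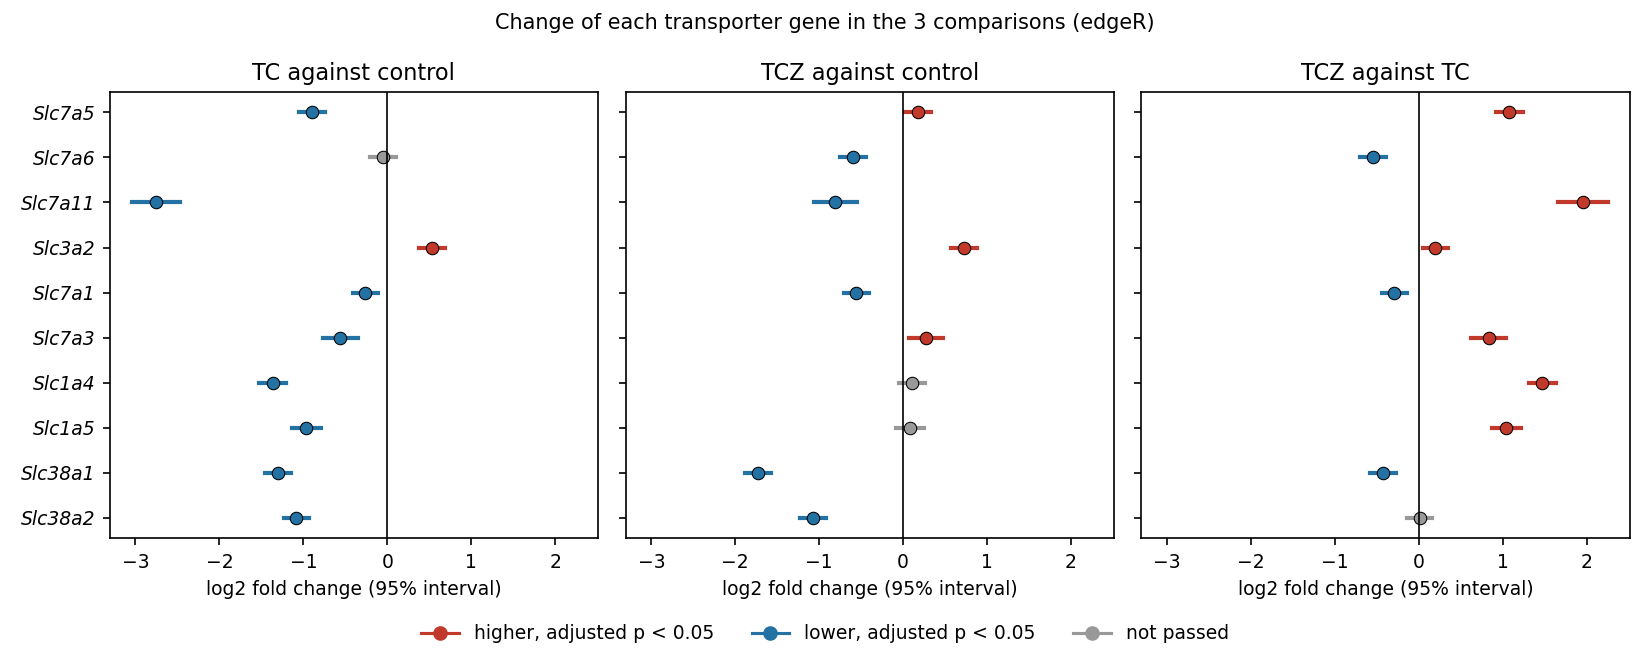
Log2 fold change of each transporter gene (horizontal axis, points) with its 95% interval (lines) in the 3 comparisons, coloured by call at an adjusted p of 0.05. Slc7a11 had the most negative value in TC against control (-2.76) and the most positive in TCZ against TC (1.95). Slc7a1, Slc7a6, Slc7a11, Slc38a1 and Slc38a2 were below 0 in both comparisons with control, though Slc7a6 did not pass in TC.

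The heavy chain Slc3a2 (chromosome 19, 8706882 to 8723369, minus strand) was the gene that rose in both treatments. Its TMM-scaled levels were 179 and 170 CPM in control, 253 and 252 under TC, and 305 and 273 under TCZ. All 4 treated libraries lay above both control libraries. The log2 fold change was 0.53 ± 0.07 (SE) in TC against control (adjusted p = 1.73e-06) and 0.73 ± 0.07 in TCZ against control (adjusted p = 1.83e-08), or 145% and 166% of the control level. TCZ against TC gave 0.20 ± 0.07 (adjusted p = 0.0276), a call that ended without TC 1 (adjusted p = 0.196), TC 2 (0.206) or TCZ 1 (0.398) and with no low-count filter (0.301).

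Slc7a5, the leucine exchanger (chromosome 8, 121881146 to 121907686, minus strand), fell in TC and was at 113% of control in TCZ. It had 266 and 243 CPM in control, 134 and 139 under TC, and 302 and 274 under TCZ. The TC libraries stood below all others. The log2 fold change was -0.90 ± 0.08 in TC against control (adjusted p = 7.91e-10), which left 53.6% of the control level (95% interval 48.1 to 59.8%). In TCZ against TC it was 1.08 ± 0.08 (adjusted p = 8.52e-11), or 2.11-fold. The difference of TCZ from control, 0.18 ± 0.07 (adjusted p = 0.0443), ended without control 2 (adjusted p = 0.37), TC 1 (0.127), TC 2 (0.114) or TCZ 1 (0.422) and with no low-count filter (0.273), and with library totals alone its value was -0.02 (0.728).

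Slc7a11, the cystine importer (chromosome 3, 50364936 to 50499087, minus strand), whose promoter is printed above, had the largest fall of the 10 in TC. Its levels were 20.9 and 20.6 CPM in control, 2.90 and 3.22 under TC, and 10.4 and 13.7 under TCZ. The 3 groups did not overlap, with TCZ between TC and control. In TC 14.8% of the control level was left (95% interval 12.1 to 18.0%; log2 -2.76 ± 0.14, adjusted p = 1.06e-13). TCZ was 3.87-fold above TC (log2 1.95 ± 0.14, adjusted p = 1.36e-10) and at 57.2% of control (log2 -0.81 ± 0.12, adjusted p = 6.96e-06). The last value was -0.99 without TCZ 2 and -0.61 without TCZ 1.

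Slc7a6, the third light chain (chromosome 8, 106168836 to 106198714, plus strand), took another course. It had 62.6 and 60.4 CPM in control, 60.6 and 58.5 under TC, and 38.8 and 42.8 under TCZ. Control and TC overlapped, and both TCZ libraries were lower. TC against control gave -0.05 ± 0.07 (adjusted p = 0.604, 95% interval -0.20 to 0.11), although with library totals alone it passed at -0.19 (adjusted p = 0.0249). TCZ gave -0.60 ± 0.08 against control (adjusted p = 6.36e-07) and -0.55 ± 0.08 against TC (adjusted p = 2.54e-06). The RPKM of the 3 light chains summed over that of Slc3a2 was 3.08 and 2.98 for the control libraries, 1.23 and 1.26 for TC, and 1.88 and 1.96 for TCZ. For Slc7a5 alone the ratio to Slc3a2 was 2.55 and 2.44 for the control libraries, 0.909 and 0.947 for TC, and 1.70 and 1.72 for TCZ. Both ratios were lower in the treatments than in control, and lowest in TC. Slc7a5 made up most of the light-chain sum, and the mean of Slc7a6 was instead lowest in TCZ (14.3 RPKM in control, 12.5 in TC and 8.27 in TCZ).

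Of the cationic amino acid carriers, both fell in TC, while in TCZ against TC Slc7a1 was lower and Slc7a3 higher. Slc7a1 (chromosome 5, 148327410 to 148399904, minus strand) had 202 and 185 CPM in control, 163 and 160 under TC, and 133 and 129 under TCZ. The groups did not overlap and stepped down from control to TC to TCZ. Its log2 fold change was -0.26 ± 0.07 in TC against control (adjusted p = 0.00307), -0.56 ± 0.07 in TCZ against control (adjusted p = 7.27e-07) and -0.30 ± 0.07 in TCZ against TC (adjusted p = 0.00149). The first of these calls ended without control 1 (adjusted p = 0.057) or TC 2 (0.0705) and with no low-count filter (0.0599).

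Slc7a3 (chromosome X, 101079204 to 101090452, minus strand) had 20.7 and 19.7 CPM in control, 14.9 and 12.6 under TC, and 25.0 and 23.7 under TCZ. TC was lowest and TCZ highest, with no overlap of groups. The log2 fold change was -0.56 ± 0.10 in TC against control (adjusted p = 4.61e-05) and 0.83 ± 0.10 in TCZ against TC (adjusted p = 3.41e-07). TCZ against control gave 0.27 ± 0.10 (adjusted p = 0.022), which did not pass without control 1 (adjusted p = 0.0681), control 2 (0.156), TCZ 1 (0.141) or the shallow pair (0.108), with DESeq2 (0.0785), with no low-count filter (0.0986) or with library totals alone (0.536). Slc7a3 overlaps Snx12 on the same strand in the table (1285 to 3234 counts per library), and reads from the overlap are uncertain.

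The neutral amino acid exchangers Slc1a4 and Slc1a5 fell in TC, and in TCZ neither passed against control. Slc1a4 (chromosome 11, 20302180 to 20332713, minus strand) had 58.8 and 56.5 CPM in control, 22.1 and 22.6 under TC, and 64.2 and 59.3 under TCZ. On this TMM scale both TCZ libraries lay just above both control libraries. In RPKM they lay below them (15.0 and 14.6 in TCZ, 15.6 and 16.2 in control). The TC libraries stood apart below the rest, at 38.8% of control (log2 -1.37 ± 0.08, adjusted p = 9.26e-13). TCZ was 2.76-fold above TC (log2 1.47 ± 0.08, adjusted p = 6.93e-13). Against control it gave 0.10 ± 0.07 (adjusted p = 0.252), with a 95% interval of 96.4 to 119% of the control level.

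Slc1a5, the glutamine exchanger ASCT2 (chromosome 7, 16781345 to 16798274, plus strand), had 67.1 and 63.4 CPM in control, 31.4 and 35.5 under TC, and 72.3 and 65.2 under TCZ. Control and TCZ overlapped, and TC lay below both. The log2 fold change was -0.96 ± 0.08 in TC against control (adjusted p = 8.54e-10) and 1.04 ± 0.08 in TCZ against TC (adjusted p = 5.06e-10). TCZ against control gave 0.08 ± 0.08 (adjusted p = 0.42), with a 95% interval of 94.1 to 118% of control. A difference within these intervals was not excluded for either gene.

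The sodium-coupled carriers Slc38a1 and Slc38a2, which lie 44.5 kb apart on chromosome 15, fell in TC and stayed low in TCZ. Slc38a1 (96571418 to 96642913, minus strand) had 184 and 171 CPM in control, 70.8 and 73.3 under TC, and 55.3 and 51.8 under TCZ. The 3 groups did not overlap, and TCZ was lowest. Its log2 fold change was -1.30 ± 0.07 in TC against control (adjusted p = 1.03e-12), -1.73 ± 0.08 in TCZ against control (adjusted p = 1.05e-14) and -0.43 ± 0.07 in TCZ against TC (adjusted p = 5.03e-05). In TCZ 30.2% of the control level was left.

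Slc38a2 (96687392 to 96699724, minus strand), known as the transporter whose transcript is induced by amino acid starvation, had 432 and 390 CPM in control, 195 and 193 under TC, and 195 and 196 under TCZ. All 4 treated libraries were below both control libraries and lay near 47% of control (47.2% in TC and 47.5% in TCZ). The log2 fold change was -1.08 ± 0.07 in TC (adjusted p = 1.68e-11) and -1.07 ± 0.07 in TCZ (adjusted p = 2.14e-11). TCZ against TC gave 0.01 ± 0.07 (adjusted p = 0.911), with a 95% interval of -0.14 to 0.16 on the log2 scale.

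**Figure D3:**
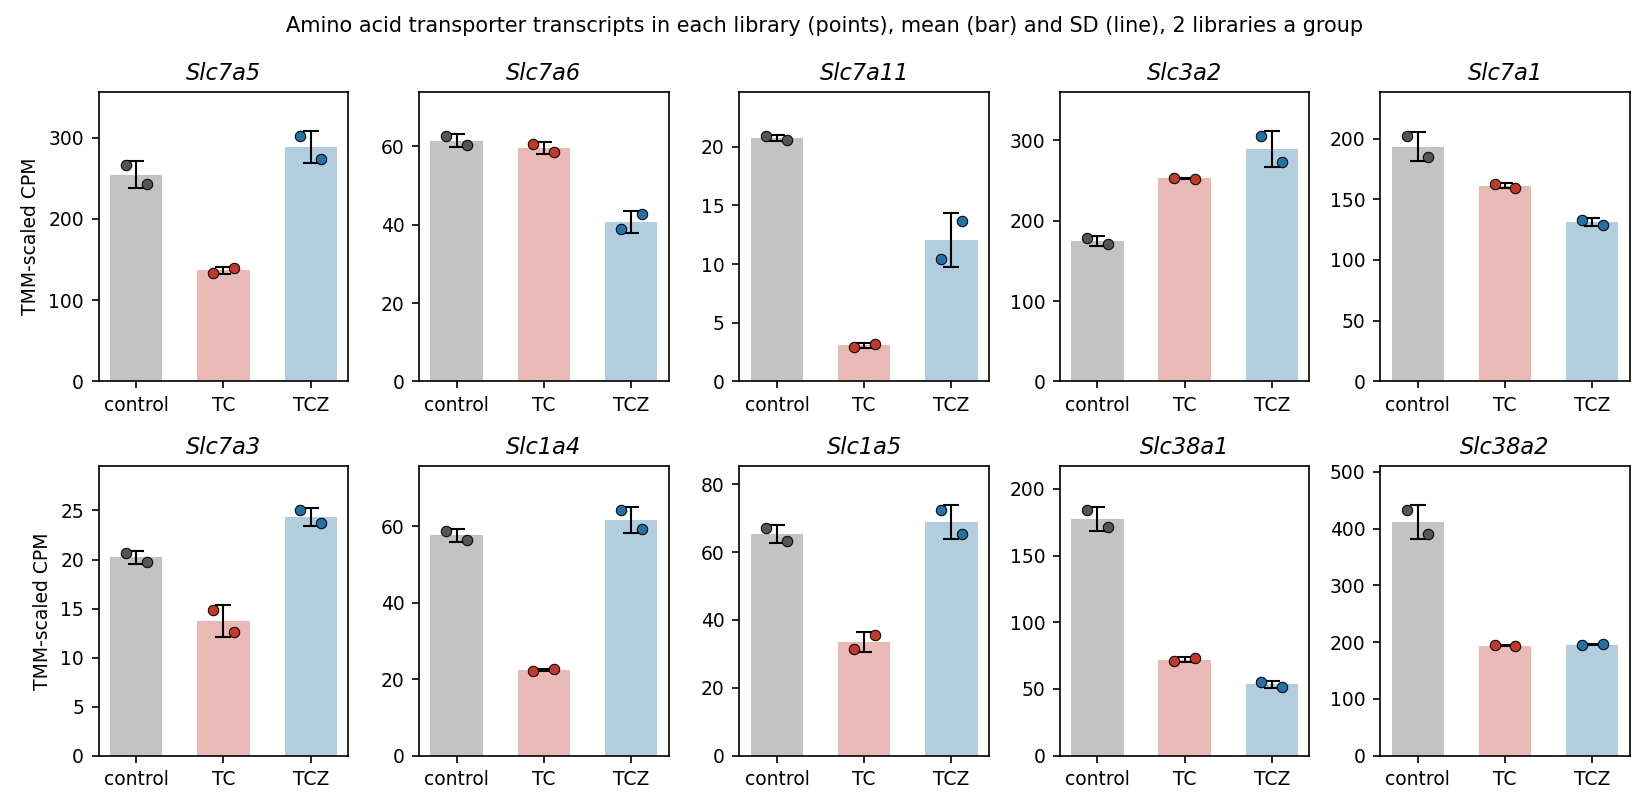
TMM-scaled CPM of the 10 transporter genes (vertical axes from 0) in control, TC and TCZ; points are libraries, bars means and lines the SD of 2 libraries. Slc7a5, Slc7a3, Slc1a4, Slc1a5 and Slc7a11 were low in TC and higher in TCZ, Slc38a1 and Slc38a2 were low in both treatments, and Slc3a2 was high in both.

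Without control 2 and TCZ 2, the same counts of the 10 genes passed in TC against control (1 higher, 8 lower) and in TCZ against TC (6 higher, 3 lower), and in TCZ against control 2 were higher and 5 lower. Comparing single libraries, the log2 ratio of TCZ 2 to control 2 was -1.73 for Slc38a1, -0.99 for Slc38a2, -0.59 for Slc7a11 and 0.68 for Slc3a2. The ratio of TCZ 1 to control 1 was -1.73, -1.15, -1.01 and 0.77 for the same genes. The direction of these 4 genes was the same in the shallow and the deep pair.

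The genes with the course most like a transporter's were sought among 8571 genes whose mean reached 10 CPM, by the distance between mean-centred log2 CPM over the 6 libraries. For Slc7a5 the nearest was Ebp, a sterol isomerase gene of cholesterol synthesis (distance 0.0649), followed by Abca2 (0.114) and Marc2 (0.129). For Slc7a11 they were Zcchc24 (0.387), Dhcr7, which encodes the last enzyme of cholesterol synthesis (0.413), and Elovl6, a fatty acid elongase gene (0.52). For Slc3a2 they were Rbm34 (0.0574), Cwc25 (0.0752) and Ctnnb1, the gene of β-catenin (0.0754). Ebp changed by -0.91 in TC against control and 1.05 in TCZ against TC, and Dhcr7 by -2.45 and 1.74. Abca2 changed by -0.88 and 1.09 in these comparisons, and Zcchc24 by -2.60 and 1.77. Likeness to the member was the rule of choice, so these values are no separate result. A theme shared by the nearest genes was not tested.

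Among 53 other amino acid transporter genes of the plasma membrane, lysosome and mitochondria, 37 had enough reads to be tested. Values for this list and the next ones are log2 fold changes, and those said to rise, fall or change passed edgeR's test. In TC against control 12 were higher and 16 lower (median -0.18), and the higher count was 7 without control 1. In TCZ against control 10 were higher and 15 lower (median -0.17), and in TCZ against TC 13 and 11 (median 0.05). Over all genes tested, 31.5% were higher and 29.1% lower in TC against control. The shares were 31.5% and 28.6% in TCZ against control, and 28.2% and 27.9% in TCZ against TC. Slc7a2, an inducible arginine carrier related to Slc7a1 and Slc7a3, had the largest rise in TC among those with a mean of 5 CPM or more, from 6.06 and 5.97 CPM in control to 191 and 201 under TC and 71.6 and 60.9 under TCZ. Its log2 fold change was 5.02 ± 0.10 in TC and 3.46 ± 0.10 in TCZ, and TCZ against TC gave -1.56 ± 0.08. Slc16a10, an aromatic amino acid carrier, rose by 2.21 in TC and 3.04 in TCZ, and Slc1a2, a glutamate transporter gene, rose by 4.14 in TCZ, from 0.474 and 0.829 CPM to 9.46 and 12.6. Slc7a7, a light chain that also pairs with Slc3a2, rose by 1.11 in TC.

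Slc6a9, a glycine transporter gene, had 21.0 and 22.2 CPM in control, 7.66 and 7.55 under TC and 18.3 and 18.5 under TCZ, so it too was low in TC and higher in TCZ (log2 -1.50 ± 0.10 and 1.27 ± 0.10). Slc6a6, which carries taurine, fell by 0.89 in TCZ against control and was at 198 and 203 CPM in TC. The mitochondrial glutamate carrier gene Slc25a22 fell by 1.39 in TC, and the aspartate-glutamate carrier gene Slc25a13 changed by -0.98 in TC and -2.74 in TCZ. Slc25a15, the mitochondrial ornithine carrier gene, changed by -0.99 and -1.48, and Slc6a17, which carries neutral amino acids, by -0.80 and -1.37.

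Enzymes that make amino acids, one-carbon units and glutathione, and the ATF4 pathway that controls many of them, formed a list of 38 genes, of which 37 were tested. In TC against control 23 were lower and 11 higher (median -0.49), against 29.1% lower and 31.5% higher over all genes tested. In TCZ against TC 24 were higher and 6 lower (median 0.45), against 28.2% and 27.9% of all genes. In TCZ against control 10 were higher and 13 lower (median -0.04), against 31.5% and 28.6%. With library totals alone 23 were lower in TCZ against control. Atf4 itself rose, from 278 and 262 CPM in control to 871 and 879 under TC and 775 and 720 under TCZ (log2 1.70 ± 0.07 and 1.47 ± 0.07). Cebpb, a partner of ATF4, rose by 0.95 ± 0.12 in TC, while in TCZ against control it gave 0.42 (adjusted p = 0.0051) and did not pass without control 2 (0.233), with DESeq2 (0.156) or with library totals alone (0.0802). The gene of the uncharged tRNA sensor GCN2, Eif2ak4, rose by 0.32 ± 0.08 in TC and gave -0.08 ± 0.08 in TCZ against control (adjusted p = 0.372), or -0.28 with library totals alone (0.00296). Atf3, a stress-induced transcription factor gene, rose from 2.37 and 2.42 CPM in control to 238 and 246 in TC (log2 6.66 ± 0.11) and 1069 and 968 in TCZ (log2 8.73 ± 0.11), the largest rise of the list. Ddit3, which encodes CHOP, rose by 1.61 ± 0.09 in TC and 1.81 ± 0.09 in TCZ. Other genes of the list fell in TC. Asns, asparagine synthetase, had 184 and 179 CPM in control, 129 and 132 under TC and 194 and 187 under TCZ. Its fall in TC was -0.47 ± 0.07, and TCZ against TC gave 0.54 ± 0.07.

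Mthfd2, a mitochondrial folate enzyme gene, changed by -1.62 ± 0.08 in TC against control and 1.49 ± 0.08 in TCZ against TC. Gpt2, alanine transaminase, changed by -1.67 ± 0.09 and 1.30 ± 0.09 in these comparisons. Bcat1, which acts on branched-chain amino acids carried by SLC7A5, fell by 1.76 in TC and 1.08 in TCZ. Chac1, which degrades glutathione, changed by -1.73 in both treatments. In TCZ against control, Trib3, which encodes a pseudokinase induced by ATF4, changed by -3.63 and Ddit4, which encodes an mTORC1 inhibitor, by -2.56. The 2 subunits of glutamate-cysteine ligase, an enzyme of glutathione synthesis, for which SLC7A11 imports cystine, were picked after their values were seen. Gclm had 37.2 and 34.6 CPM in control, 13.6 and 15.7 under TC and 28.5 and 30.0 under TCZ (log2 -1.30 ± 0.09 and 0.99 ± 0.09 in TC against control and TCZ against TC). Gclc gave -0.06 ± 0.07 in TC against control (adjusted p = 0.541), or -0.20 with library totals alone (0.0149), and rose by 0.92 ± 0.07 in TCZ against TC.

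The machinery through which mTORC1 senses amino acids was a list of 37 genes, of which 36 were tested. In TC against control 13 were higher and 13 lower (median -0.03), against 31.5% and 29.1% of all genes tested. In TCZ against control 13 were higher and 11 lower (median 0.04), against 31.5% and 28.6%. TCZ against TC gave 13 higher and 11 lower (median 0.01), against 28.2% and 27.9%. The list medians were close to the medians of all genes. With library totals alone 20 were lower in TC, and 6 higher in TCZ against control. The lower count in TC was 8 without control 1. Depdc5, a subunit of the inhibitory GATOR1 complex, fell by 2.60 in TC and 1.78 in TCZ. Wdr24, a subunit of GATOR2, the complex that opposes GATOR1, changed by -1.28 in TC and -2.89 in TCZ. Wdr59, also of GATOR2, rose by 0.44 in TC and changed by -0.94 in TCZ against control. Gatsl2, which encodes CASTOR2, a relative of the arginine sensor CASTOR1, fell by 1.65 and 1.09. Rragd, a Rag GTPase gene, rose by 1.75 in TC, and Fnip1, which encodes a folliculin partner, rose by 1.11 in TC and 1.75 in TCZ. Lamtor3, a subunit of the Ragulator complex, rose by 1.25 in TC and 1.20 in TCZ, and Eif4e, which encodes the cap-binding protein, rose by 1.27 in TC. Sesn3, a sestrin gene, changed by -1.25 in TC against control and 1.69 in TCZ against TC. Mtor rose by 0.38 ± 0.08 in TC, and in TCZ against control it gave 0.28 (adjusted p = 0.00318), which did not pass without control 2 (0.0694), TCZ 1 (0.0853) or with library totals alone (0.223).

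**Figure D4:**
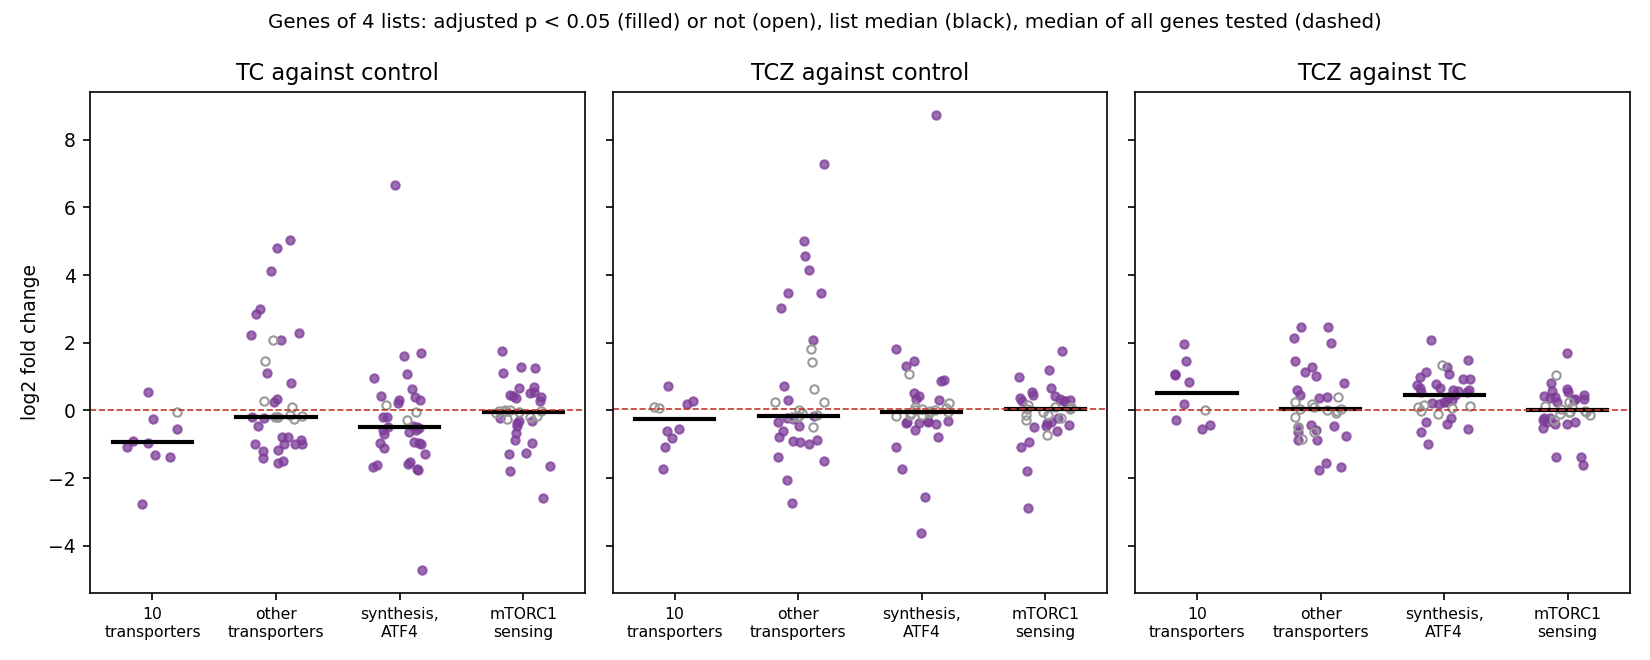
Log2 fold change (vertical axis) of each tested gene in 4 lists for the 3 comparisons; filled points passed an adjusted p of 0.05, open points did not, black bars are list medians and the dashed line is the median of all genes tested. The median of the 10 transporters was -0.93 in TC against control and 0.51 in TCZ against TC, and that of the mTORC1 list lay within 0.1 of 0 in all 3 comparisons.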

How the data were processed

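The authors deposited 1 table that holds raw counts, RPKM values and gene lengths for 6 libraries, per the file headers. Per the labels' protocols, poly(A) RNA was fragmented, reverse transcribed with random primers and sequenced on Illumina. The submitters' processing notes name bcl2fastq, HISAT2 2.1.0, HTSeq and mm10; strand, annotation and filters were not given in the sources used here, so reads of overlapping genes are uncertain. Deposited RPKM equalled counts per kilobase scaled to the library total, to within 5e-07 of recomputed values. Positions are the table's, on mm10, and promoter sequences are RefSeq's on GRCm38.p6.

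The counts went into edgeR 4.0.16 (R 4.3.3): filterByExpr by group (minimum count 10), TMM scaling, 1 model of all 6 libraries with group as the only factor (3 residual degrees of freedom), and the quasi-likelihood test, adjusted by Benjamini-Hochberg over 18563 genes. The SE is the absolute log2 fold change over the square root of F. The procedure was tested on simulated data in which far fewer genes changed than passed here. That test does not speak to the choice of scaling in these data. Libraries of a group differed beyond counting noise (chi-square per gene 4.64 to 7.87), and nothing says they came from separate cultures, so p-values reflect only how far these libraries spread, possibly for technical reasons. Scaling by library totals shifted the log2 median over all genes by -0.14 (TC to control), -0.2 (TCZ to control) and -0.056 (TCZ to TC), and the share of calls that were higher went from 52% to 43.5%, 52.4% to 39.4% and 50.3% to 45.7%; fold changes are relative to the TMM scale.

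The members, lists and tests were chosen with earlier results of these data known. All 10 members were named. From each other list, the rule took, per comparison, up to 3 rises and 3 falls of greatest size among genes passing with a mean of at least 5 CPM, plus Atf4, Asns, Cebpb, Mtor and Eif2ak4; older symbols were matched through RefSeq synonyms. The 3 nearest courses were sought for Slc7a11, Slc3a2 and Slc7a5. Alternatives were DESeq2 1.42.0, limma-voom (limma 3.58.1), RLE factors, library totals, no low-count filter, at least 50 counts in 2 libraries, a fit of the compared groups alone, a block for the replicate number, a term for control 2 and TCZ 2, leaving out that pair or each library, and a log2 fold change of at least 1. Applying them to the other lists was added after the data were seen.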

Additional observations from a re-analysis of the deposited data

How the results depend on the processing

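Of 480 fold changes of the 10 transporters recomputed under the alternatives, 451 kept their direction and side of the threshold, 19 kept their direction and lost the call, 2 gained one, and 8 changed sign. None of the 8 had a smaller adjusted p than 0.122, and 1 of them, Slc7a5 in TCZ against control with library totals, also lost its call. With library totals alone, TCZ against control became -0.0987 for Slc1a4, -0.121 for Slc1a5 and -0.0198 for Slc7a5, and TCZ against TC became -0.0429 for Slc38a2. TCZ against TC for Slc38a2 was also -0.0281 with no low-count filter, -0.00242 with only the groups compared and -0.00568 to 0.0101 when a library was left out (lowest without TC 2), and TCZ against control for Slc1a5 was -0.0108 (without TCZ 1) to 0.153 (without TCZ 2). Slc1a4 passed in TCZ against control with at least 50 counts in 2 libraries (0.16, adjusted p = 0.0236). The cause of these shifts was not tested.

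The count of transporters higher in TCZ against control was 3, and 1 with library totals alone, 1 with no low-count filter and 1 to 3 when a library was left out. With a log2 fold change of at least 1 the counts were 0 higher and 4 lower in TC against control, 0 higher and 2 lower in TCZ against control, and 0 lower in TCZ against TC. For the other lists, library totals alone gave 23 synthesis and ATF4 genes lower and 6 sensing genes higher in TCZ against control, and 20 sensing genes lower in TC against control. When each library was left out, 7 to 12 other transporters were higher and 8 to 13 sensing genes lower in TC against control. The replicate number as a block changed none of the transporter counts: 1 higher and 8 lower in TC against control, 3 and 5 in TCZ against control, and 6 and 3 in TCZ against TC. Deviations of same-numbered libraries from their group means correlated at 0.0115, 0.124 and -0.0215 (control with TC, control with TCZ, TC with TCZ), so the numbers were not taken to pair the libraries. Whether control 2 and TCZ 2 share a batch was not tested; with a term for this pair the transporter counts were again 1 and 8, 3 and 5, and 6 and 3.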
